A study of Mus musculus with 12 samples.

Results

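The genes Slco2b1, Cd44, Morf4l2, Pcgf6, Qrich1, Blcap and Wdr89 were examined transcript by transcript in mouse livers, because a single transcript of each differed strongly between groups of livers. They were chosen from measured values of the same livers, and are 7 of the 24296 genes with a symbol in the table. Blcap was chosen from silibinin against model, Morf4l2 from silibinin against model and phloridzin against model, and the other 5 genes from phloridzin against silibinin. Values of those comparisons are given as a description, without a test. The genes hold 50 of 169430 transcript rows, and 43 of the 50 are annotated as protein coding. Of these rows, 25 had a mean of at least 0.5 FPKM over the 12 livers and 25 were below it, and 1 of the latter, Cd44-205, was listed at 0 in every liver. Cd44-207 is above this minimum through the silibinin group alone.

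RNA of 12 livers of male C57/BL6N mice was sequenced, with 3 livers in each of 4 groups, and the age of the mice was not given. The control group is labelled WT. The model group received carbon tetrachloride (CCl4), a toxin that injures hepatocytes and leads to fibrosis, in olive oil at 5 mL/kg by intraperitoneal injection over 8 weeks. The silibinin group and the phloridzin group received the same CCl4 and, from week 5, silibinin, a flavonolignan of milk thistle, or phloridzin, a glucoside of phloretin that inhibits sodium-glucose cotransport. The phloridzin livers are those of the high-dose group in the study. Values are FPKM, the fragments of a transcript divided by its length in kilobases and by the depth of the liver. Depth was 105 to 109.6 M fragments in control, 83.7 to 101 M in model, 107 to 111 M in silibinin and 98.5 to 105 M in phloridzin livers, read from the smallest step between values. No pair of livers had identical values. Over all transcripts, each control and each model liver was closest to a liver of its own group, whereas silibinin 3 was closest to phloridzin 3 and all 3 phloridzin livers were closest to a silibinin liver.

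One gene can give several messenger RNAs, through different start sites, through exons that are kept or skipped, or through introns that stay in the RNA. Such transcripts can encode the same protein from different leader sequences, proteins with different ends, or proteins that lack whole segments. In the liver, alternative start sites and alternative exons are known for transporters and for adhesion receptors. A transcript is named here by its Ensembl name, such as Cd44-201, the gene sum is the sum of FPKM over all rows of a gene, and a share is the percentage of the gene sum held by 1 transcript. The division of fragments between transcripts with bases in common is an estimate of the authors' software, and the error of that estimate is not part of the spread between livers. Blcap-202, Cd44-203, Qrich1-202, Morf4l2-202, Morf4l2-203, Morf4l2-214 and Morf4l2-215 have 0 bases that are in no other described transcript of their gene. Cd44-207 has 40 of 5045, Slco2b1-202 has 206 of 3993 and Slco2b1-203 has 651 of 4369.

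The genes differed in whether the gene sum followed the transcript. Overlap is described here for the comparisons that chose the genes, in which separation follows from the choice. The share of all transcripts that do not overlap was not counted. In the comparison that chose them, the gene sums of Slco2b1, Cd44 and Qrich1 overlapped between the groups while 1 or 2 of their transcripts with a mean of at least 0.5 FPKM did not. Below this mean Slco2b1-206, Slco2b1-208 and Qrich1-209 did not overlap either, and neither did Slco2b1-204 and Qrich1-203, with at most 1 fragment in each of these livers. In Blcap and Morf4l2 the gene sum differed as well, with groups that did not overlap. Pcgf6 has 1 row, which is its gene sum, and Wdr89-201 held 76.2% to 100% of the Wdr89 sum in every liver. A change of a transcript against its gene sum was therefore measurable in 5 of the 7 genes.

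**Figure D1:**
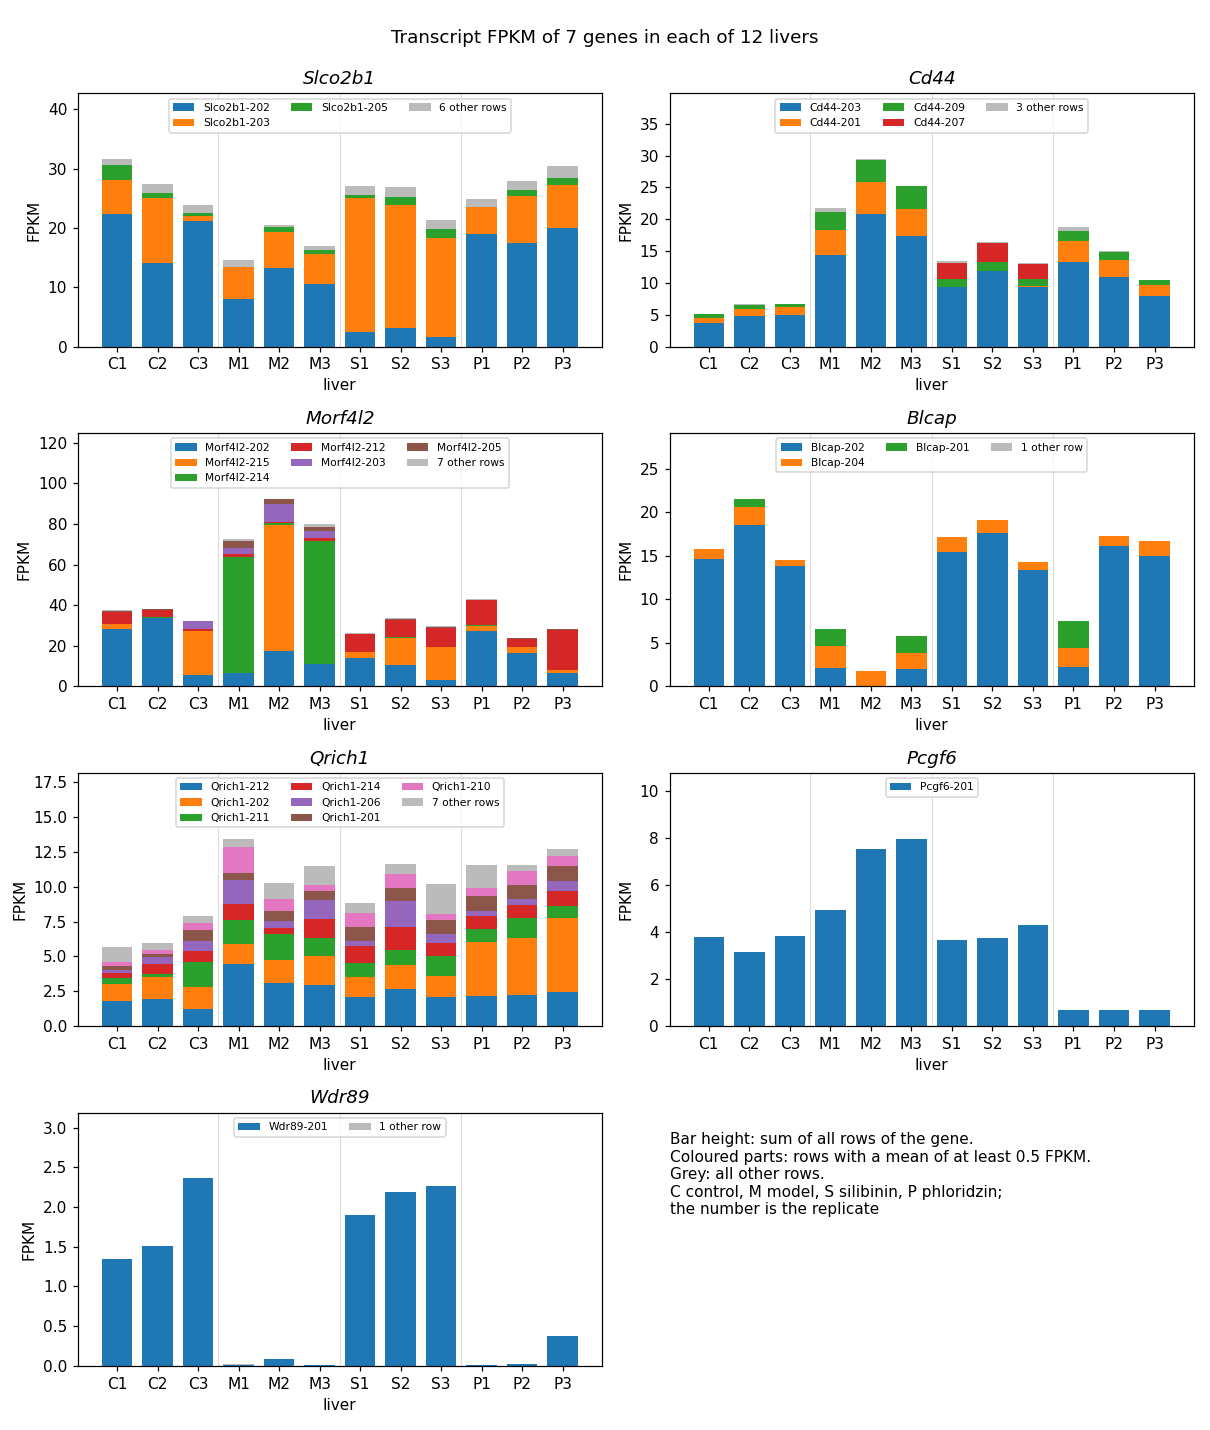
FPKM of each transcript with a mean of at least 0.5 FPKM, stacked for each of the 12 livers (C control, M model, S silibinin, P phloridzin), with the other rows of the gene in grey, so that the bar height is the gene sum. In Slco2b1 the bars of silibinin and phloridzin livers are of similar height, while Slco2b1-203 fills most of each silibinin bar and Slco2b1-202 most of each phloridzin bar.

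Slco2b1 encodes an organic anion transporting polypeptide, a membrane carrier that takes up steroid sulfates and many drugs. The gene lies on the minus strand of chromosome 7 (GRCm38), and Slco2b1-202 (chr7:99658389-99695809) and Slco2b1-203 (chr7:99658389-99707161) have 14 exons each, of which 13 are identical. They have 3718 bases in common, and their start sites are 11352 bases apart. Their coding sequences differ at the 5′ end. That of Slco2b1-203 starts in its first exon and has 2079 bases, 30 bases or 10 codons more than the 2049 bases of Slco2b1-202, which starts in the exon after it. The first 60 coding bases of both transcripts, taken from the GENCODE M21 transcripts, are shown because they hold all of the coding difference. Capitals mark the bases coded in the first exon of Slco2b1-203 (chr7:99706511-99706526, minus strand), and the start codon of Slco2b1-202 lies in the exon after it (chr7:99691757-99691879, minus strand, from the start codon on).
Slco2b1-202: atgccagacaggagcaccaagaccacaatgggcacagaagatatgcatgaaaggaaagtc
Slco2b1-203: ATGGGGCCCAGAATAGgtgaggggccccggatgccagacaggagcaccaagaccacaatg

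Slco2b1-202 was at 22.3, 14.1 and 21.2 FPKM in the control livers, 7.98, 13.2 and 10.6 in the model livers, 2.48, 3.06 and 1.61 in the silibinin livers and 18.9, 17.4 and 19.9 in the phloridzin livers. Slco2b1-203 was at 5.78, 10.9 and 0.871 FPKM in the control livers, 5.43, 6.16 and 5.07 in the model livers, 22.5, 20.9 and 16.7 in the silibinin livers and 4.67, 7.87 and 7.32 in the phloridzin livers. All silibinin livers were below all others for Slco2b1-202 and above all others for Slco2b1-203, and phloridzin livers lay within the range of control livers for both. The gene sum was 27.1, 26.8 and 21.3 FPKM in the silibinin livers and 24.8, 27.9 and 30.4 in the phloridzin livers, and these groups overlapped. Slco2b1-202 had a mean of 18.8 ± 1.25 FPKM in the phloridzin group and 2.38 ± 0.732 in the silibinin group (SD, n = 3), a ratio of 7.87 and a difference of 2.57 in log2(FPKM + 1). This scale understates the differences of low values. For Slco2b1-203 the difference was -1.48 in the opposite direction, and for the gene sum it was 0.14. The shares separated the groups in the same way. Slco2b1-202 held 7.54% to 11.4% of the gene sum in the silibinin livers, 62.5% to 76.3% in the phloridzin livers, 54.7% to 64.6% in the model livers and 51.4% to 88.6% in the control livers. Slco2b1-203 held 77.8% to 83.1% in the silibinin livers and at most 39.8% elsewhere, the latter in control 2. Together the 2 transcripts made up 85.8% to 95.1% of the gene sum in every liver. By group mean Slco2b1-202 was ordered control, phloridzin, model and silibinin, and only control and phloridzin overlapped among neighbours.

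Model against control was not used to choose Slco2b1, and was tested with limma on log2(FPKM + 1) over all 12 livers, with Benjamini-Hochberg adjustment over all transcripts or gene sums tested. The spread is estimated over all groups. Here and in the tests below it therefore also rests on livers that were used to choose the genes. A transcript or sum was called at an adjusted p under 0.05 and a log2 difference above 1 or below -1. In this comparison 2415 of 50485 transcripts (4.78%) and 1382 of 13158 gene sums (10.5%) were called, and 81.8% of the called transcripts and 89.7% of the called sums were higher in the model group. The median difference was 0.26 over all transcripts and 0.34 over all sums. Scaling of the livers by median ratios removes this shift, and the higher share then becomes 43.2% of 1774 called transcripts and 50.9% of 954 called sums. The Slco2b1 sum was 31.6, 27.5 and 23.9 FPKM in the control livers and 14.6, 20.4 and 17.0 in the model livers, which did not overlap. The difference of the sum was -0.65 (SE 0.160, adjusted p = 0.011 by limma with Benjamini-Hochberg adjustment, lower in 3 of 3 model livers), which is not a call because of its size, and with scaling by median ratios it was -1.09 and a call (adjusted p = 0.00185). Slco2b1-202 differed by -0.80 (SE 0.244, adjusted p = 0.0541 by limma with Benjamini-Hochberg adjustment), and with the same scaling by -1.23 and with a call (adjusted p = 0.0219). Slco2b1-203 differed by 0.30 (SE 0.537, adjusted p = 0.747 by limma with Benjamini-Hochberg adjustment), within the spread of the control livers, and by -0.06 with this scaling and -0.46 without control 3. Slco2b1-205, a short transcript, was between 0 and 2.47 FPKM in the 12 livers and differed by -0.60 (SE 0.388, adjusted p = 0.32). The other 6 rows of Slco2b1 had values of at most 0.688 FPKM.

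Shares were tested with limma on the arcsine square root of the share in genes with at least 2 rows, for transcripts with a mean share of 5% to 95%. Of 33126 shares, 87 (0.263%) were called at an adjusted p under 0.05 between model and control. None of the 12 tested shares of Slco2b1, Cd44 and Qrich1 was called, and none had an unadjusted p under 0.05. The diffSplice test of limma also called 0 of them, beside 837 of all 32716 transcripts that it tested. The share of Slco2b1-202 was 60.5% ± 5.18 in the model group and 70.2% ± 18.6 in the control group (SD, n = 3, adjusted p = 0.761 by limma with Benjamini-Hochberg adjustment). The division between Slco2b1-202 and Slco2b1-203 thus differed between silibinin and all other groups in every liver, whereas a difference between model and control was not detected against the spread of the control livers.

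Annotated promoter windows of RefSeq (GRCm38.p6), from 250 bases before to 50 bases after a start, were searched on both strands for GAANNTTC and TTCNNGAA of heat shock elements, the CCAAT box, the TATA box with TATAAA, the AP-1 site TGANTCA and the antioxidant response element with TGACNNNGC. Of 32851 mouse promoter windows, 7.86% held GAANNTTC, 8.52% TTCNNGAA, 37.4% CCAAT, 13.6% TATAAA, 7.81% TGANTCA and 12.4% TGACNNNGC. The table has 3 windows for Slco2b1, and 1 starts at the start site of Slco2b1-202. The nearest RefSeq start to that of Slco2b1-203 is 319 bases away, so no window is given for it. The window of Slco2b1-202 (chr7:99695760-99696059, minus strand) is shown because the estimated level of this transcript distinguished the silibinin livers from the others. Whether use of this start differed was not tested. Low-level transcripts that begin within the first exon of Slco2b1-202 were not all lower in silibinin than in phloridzin livers. Capitals mark the 1 match in this window, a CCAAT box on the other strand, and none of the other 5 motifs matched.
Slco2b1-202 promoter: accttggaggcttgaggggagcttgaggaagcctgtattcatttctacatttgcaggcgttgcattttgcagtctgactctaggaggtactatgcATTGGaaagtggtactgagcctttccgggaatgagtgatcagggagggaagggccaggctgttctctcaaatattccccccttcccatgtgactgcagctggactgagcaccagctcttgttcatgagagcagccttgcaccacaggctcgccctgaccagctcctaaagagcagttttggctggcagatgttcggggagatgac

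**Figure D2:**
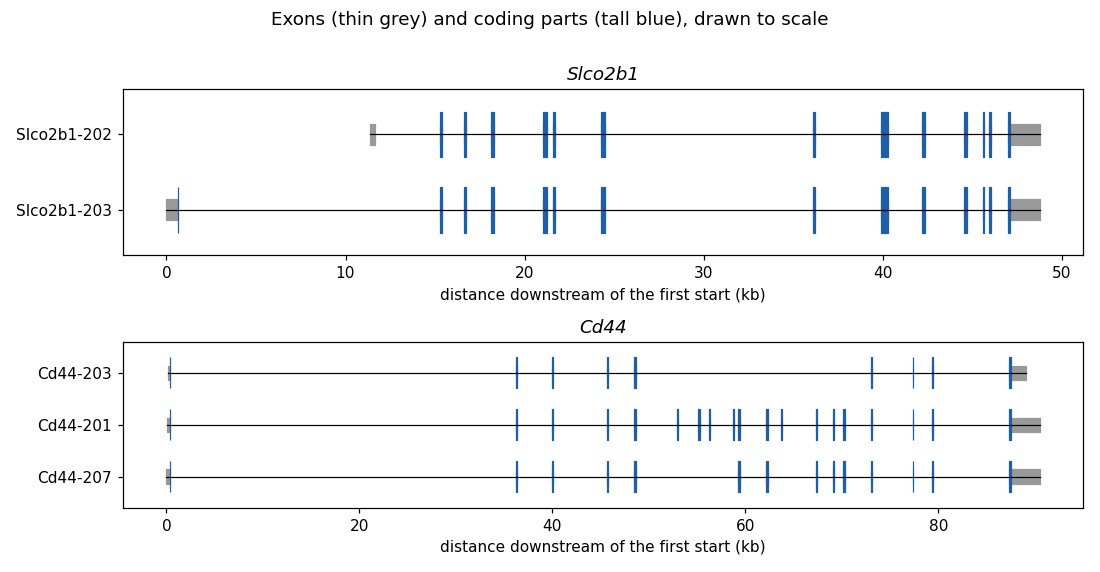
Exons (grey) and coding parts (blue) of Slco2b1-202 and Slco2b1-203 and of Cd44-203, Cd44-201 and Cd44-207, drawn to scale against the distance in kb downstream of the most upstream start of the gene. The 2 Slco2b1 transcripts differ in their start, and the 3 Cd44 transcripts in the number of coding exons in the middle of the gene.

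Other transporters of organic anions and bile salts were taken as a related list. Of 13 tested gene sums, 1 was called higher and 0 lower in model against control, beside 10.5% of all sums, and their median difference was -0.68, against 0.34 over all sums. Abcc4, an export pump for organic anions and cyclic nucleotides, had a mean of 12.1 ± 1.21 FPKM in the model group and 1.16 ± 0.319 in the control group (SD, n = 3), and rose by 2.61 (adjusted p = 0.000151 by limma with Benjamini-Hochberg adjustment). With scaling by median ratios 5 transporters were called lower as well, among them Slc10a1, Slc22a7, Slco1b2 and Abcc3, named after their values were seen. With this scaling 468 of all 13123 sums were called lower. Abcc4 was also the transporter called lower in silibinin against model (-2.17), where 4.0% of all gene sums were called. It was called lower in phloridzin against model (-1.52) as well, where 3.52% were called. There, with the scaling, Abcc3 was called higher (1.18), beside 191 of all 13123 sums called higher. In phloridzin against silibinin, the comparison used to choose Slco2b1, 0 of the 13 sums were called, and 3 of all 13158 sums (0.0228%).

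Cd44 encodes a cell surface receptor for hyaluronan, a polysaccharide of the extracellular matrix. Its standard form lacks the variable exons in the middle of the gene, and variant forms keep some or all of them in the part of the protein outside the cell. Cd44-203 (chr2:102812547-102901510, minus strand) has 9 exons and 1095 coding bases, Cd44-201 (chr2:102811141-102901625) has 19 exons and 2340 coding bases, and Cd44-207 (chr2:102811141-102901665) has 14 exons and 1731 coding bases. Cd44-201 has 10 coding exons with 1245 bases that Cd44-203 lacks. Cd44-207 keeps 5 of these with 636 bases and lacks the other 5, with 609 bases. The junctions after the last exon before the variable part (chr2:102853015-102853236, minus strand) are shown because they separate the 3 transcripts. Lower case is the end of this exon, and capitals are the start of the next exon, at chr2:102848657-102848782 in Cd44-201, chr2:102828542-102828610 in Cd44-203 and chr2:102842261-102842377 in Cd44-207.
Cd44-201: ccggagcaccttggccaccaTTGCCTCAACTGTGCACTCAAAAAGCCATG
Cd44-203: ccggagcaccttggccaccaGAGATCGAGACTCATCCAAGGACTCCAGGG
Cd44-207: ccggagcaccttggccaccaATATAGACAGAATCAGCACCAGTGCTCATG

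Cd44-201 was at 0.769, 1.09 and 1.21 FPKM in the control livers, 3.91, 5.14 and 4.29 in the model livers, 0.0852, 0.0707 and 0.0647 in the silibinin livers and 3.27, 2.62 and 1.74 in the phloridzin livers. Cd44-207 was at 2.52, 2.92 and 2.38 FPKM in the silibinin livers, which are 1358, 1635 and 1320 fragments, and was listed at 0 in all control and phloridzin livers and in model 1 and model 3. In model 2 it was at 0.00195 FPKM, which is 1 fragment. The silibinin livers were thus the lowest for Cd44-201 and the highest for Cd44-207, with no overlap with any other group. Cd44-201 and Cd44-207 together held 14.8% to 19.4% of the gene sum in all 12 livers. Cd44-201 alone held 14.8% to 18.0% in control, model and phloridzin livers and 0.428% to 0.634% in silibinin livers, and Cd44-207 held 17.7% to 18.8% in silibinin livers. Between phloridzin and silibinin the difference was 1.70 for Cd44-201, a ratio of means of 34.6, and -1.85 for Cd44-207, for which a ratio is not given because the phloridzin livers are at 0. The difference of Cd44-203 was 0.05 and that of the gene sum 0.01, both with groups that overlapped.

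Cd44-203, the standard form, had the highest level of the Cd44 transcripts. It was at 3.71, 4.79 and 4.94 FPKM in the control livers, 14.4, 20.8 and 17.3 in the model livers, 9.34, 11.8 and 9.44 in the silibinin livers and 13.3, 11 and 7.93 in the phloridzin livers. The Cd44 sum was 5.19, 6.67 and 6.74 FPKM in the control livers, 21.8, 29.5 and 25.2 in the model livers, 13.4, 16.5 and 13.2 in the silibinin livers and 18.8, 15.0 and 10.5 in the phloridzin livers. Model livers were above and control livers below all others for the sum, and the groups of both drugs overlapped. In model against control, which was not used to choose Cd44, the sum rose by 1.88 (SE 0.202, adjusted p = 0.000172 by limma with Benjamini-Hochberg adjustment), with 25.5 ± 3.87 against 6.20 ± 0.876 FPKM (SD, n = 3). Cd44-203 rose by 1.75 (adjusted p = 0.00163 by limma with Benjamini-Hochberg adjustment) and Cd44-201 by 1.43 (adjusted p = 0.00143). Cd44-209, which retains an intron and has no coding sequence, rose by 1.36 (adjusted p = 0.000635 by limma with Benjamini-Hochberg adjustment). With scaling by median ratios these differences were 1.45, 1.33, 1.11 and 1.09, all called. The shares of these transcripts were not called, and Cd44-203 held 68.4% ± 2.15 of the sum in the model group and 72.2% ± 1.04 in the control group (SD, n = 3, adjusted p = 0.827 by limma with Benjamini-Hochberg adjustment). The share of Cd44-203 was 66.1% to 70.4% in the model livers and 71.4% to 73.4% in the control livers, lower in 3 of 3 model livers without a call. The other 3 rows of Cd44 had at most 0.705 FPKM.

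Livers are mixtures of cells, and in bulk tissue more or fewer cells of a type and more or less RNA per cell cannot be told apart. Cd44 is expressed by several of the cell types whose markers were measured beside it, and the counts of called markers in model against control stand beside 10.5% of all gene sums, of which 89.7% were higher. The markers of stellate cells and myofibroblasts, the collagen producing cells of the liver, summed to 31.7, 23.4 and 27.5 FPKM in the control livers, 160.2, 132 and 169 in the model livers, 162, 155 and 74.1 in the silibinin livers and 216, 86.9 and 70.2 in the phloridzin livers. Of their 7 genes, 3 were called higher in model against control, Col1a1 (4.35), Col3a1 (3.75) and Lrat (1.47), and Col3a1 had the highest level. The macrophage markers summed to 107, 175 and 133 FPKM in the control livers, 163, 270.5 and 204 in the model livers, 167, 229 and 184 in the silibinin livers and 327, 291 and 189 in the phloridzin livers, with 0 of 6 called and Cd5l at the highest level. The cholangiocyte markers summed to 11.3, 13 and 16.7 FPKM in the control livers, 46.2, 55.6 and 50.2 in the model livers, 47.8, 48.7 and 24.1 in the silibinin livers and 52.7, 26.8 and 25.7 in the phloridzin livers. Of 3 tested cholangiocyte markers 1 was called higher, Spp1, which also had the highest level.

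Neutrophil markers summed to 20.5, 7.62 and 21.8 FPKM in the control livers, 26.3, 70.7 and 42.7 in the model livers, 16.0, 25.5 and 8.93 in the silibinin livers and 21.7, 80.3 and 37.5 in the phloridzin livers. Of 3 tested, 1 was called higher in model against control, Retnlg, which is lost with scaling by median ratios, and S100a8 had the highest level. Endothelial markers, led by Clec4g, were between 32.2 and 81.0 FPKM in the 12 livers, with 0 of 5 called. T cell markers, led by Cd3e, summed to 1.12, 1.58 and 1.66 FPKM in the control livers, 3.10 to 5.71 in the model livers and 2.00 to 5.17 in the livers of both drugs, with 0 of 2 tested genes called. B cell markers, led by Cd79b, summed to 0.866, 1.95 and 2.14 FPKM in the control livers, 3.42 to 4.33 in the model livers and 2.72 to 5.67 in the livers of both drugs, with 0 of 3 called. Hepatocyte markers, led by Alb, summed to 13734 to 34813 FPKM with 0 of 5 called. Without scaling, the sums of stellate cell, cholangiocyte, neutrophil, T cell and B cell markers were higher in every model liver than in every control liver. The Cd44 sum was as well, and those of hepatocyte, macrophage and endothelial markers overlapped. All gene sums shifted up by a median of 0.34 in this comparison, and how many of them separate in this way was not counted. Spp1 made up 45.9 of the mean of 50.7 FPKM of the cholangiocyte sum in the model group. No marker was at 0 in all 12 livers. The part of these cells in the Cd44 result was not tested.

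Of 14 tested genes for hyaluronan turnover and CD44 partners, 5 were called higher and 0 lower in model against control, beside 10.5% of all gene sums, and the median difference was 0.65 against 0.34 over all gene sums. Spp1, which encodes osteopontin, a ligand of CD44, rose by 1.94, and Tnfaip6, which encodes a hyaluronan binding protein, by 1.59. Cd74, a surface receptor that pairs with CD44, rose by 1.57, and Msn, which encodes moesin, a linker between CD44 and actin, by 1.43. The fifth is Ezr, another such linker, named after its value was seen, which rose by 1.31. With scaling by median ratios Spp1, Tnfaip6 and Cd74 were called, beside 486 of all 13123 sums called higher. Tnfaip6 was the gene of this list called in silibinin against model (-1.45) and in phloridzin against model (-1.44). In these comparisons 4.0% and 3.52% of all gene sums were called. The mean of Tnfaip6 was 2.13 ± 0.163 FPKM in the model group and 0.143 ± 0.0279 and 0.153 ± 0.0616 in the silibinin and phloridzin groups (SD, n = 3).

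**Figure D3:**
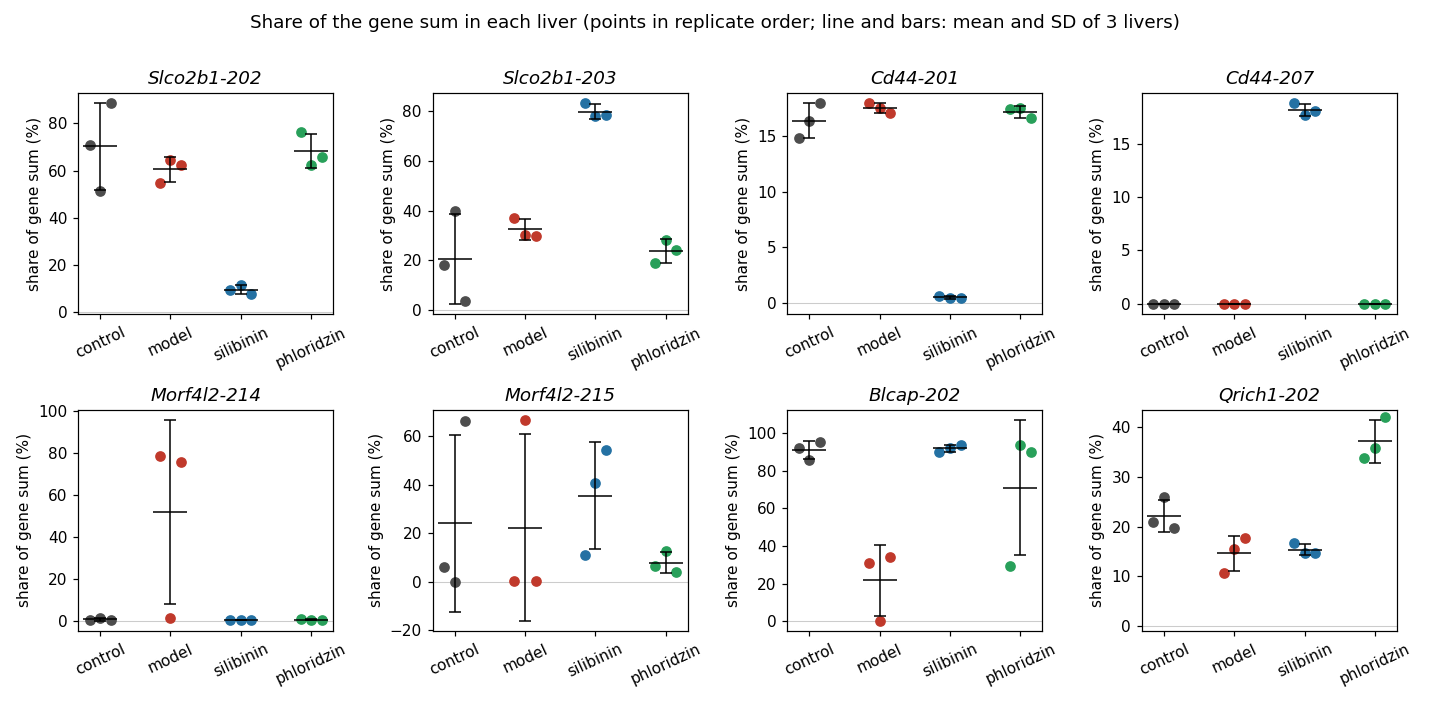
Share of the gene sum in percent, for 8 transcripts in the 4 groups, with 1 point per liver and the mean and SD of 3 livers as line and bars. The silibinin livers lie apart from all others for both Slco2b1 and both Cd44 transcripts, whereas the model livers are divided for Morf4l2-214 and Morf4l2-215.

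Splicing regulators, proteins that decide which exons are kept, were taken as a related list because the Cd44 transcripts differ by exons. Of 36 tested, 4 were called higher and 0 lower in model against control, beside 10.5% of all gene sums, with a median of 0.63 against 0.34 over all gene sums. Tra2a (1.34) and Tra2b (1.24), which promote the use of exons with purine-rich enhancers, Mbnl1 (1.11) and Hnrnph1 (1.04) rose. With scaling by median ratios the call of Tra2a was kept and those of the other 3 were lost, beside 486 of all 13123 sums called higher. In silibinin against model 2 of 36, Tra2b (-1.17) and Tra2a (-1.10), were called lower, beside 4.0% of all gene sums. In phloridzin against model 1 of 36, Tra2b (-1.21), was called lower, beside 3.52% of all gene sums. With the scaling 0 genes of the list were called in either comparison, beside 424 and 384 of all 13123 sums. In phloridzin against silibinin 0 of 36 were called, beside 0.0228% of all gene sums, and the median difference was 0.02 against 0.03 over all sums.

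Morf4l2 encodes an MRG domain protein, a subunit of NuA4 histone acetyltransferase complexes. It lies on the minus strand of the X chromosome (GRCm38). Morf4l2-202, Morf4l2-212, Morf4l2-214 and Morf4l2-215 share all 864 coding bases and differ in their leader exons. Morf4l2-202 and Morf4l2-215 start at the same base (chrX:136732953-136741352), and the start of Morf4l2-214 (chrX:136732953-136741155) is 197 bases downstream of it. The 4 transcripts together held 87.4% to 98.6% of the gene sum in all livers. No test is given for this gene, as the model group was used to choose it in both comparisons.

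Morf4l2-214 was at 57.0, 1.12 and 60.7 FPKM in the model livers, and at 0.0521 to 0.522 FPKM in the other 9 livers. Morf4l2-215 was at 0.0537, 61.8 and 0.0448 FPKM in the model livers, 2.30, 0 and 21.5 in the control livers, 2.90, 13.7 and 16.2 in the silibinin livers and 2.83, 3.01 and 1.17 in the phloridzin livers. The model livers were therefore divided, with Morf4l2-214 as the leading transcript in model 1 and model 3 and Morf4l2-215 in model 2. By its share of the sum Morf4l2-214 did not separate the model group, with 1.21% in model 2 and 1.36% in control 2. The 2 transcripts together were at 57.1, 63.0 and 60.7 FPKM in the model livers, 68.1% to 78.8% of the gene sum. The gene sum was 37.6, 38.3 and 32.4 FPKM in the control livers, 72.5, 92.5 and 80.0 in the model livers, 26.1, 33.5 and 29.7 in the silibinin livers and 43.2, 24.1 and 28.5 in the phloridzin livers. Every model liver was above every other liver for the sum, and the 3 other groups overlapped. Morf4l2-214 differed by -4.15 between silibinin and model and by -4.10 between phloridzin and model, and the first of these was -5.76 without model 2. The gene sum differed by -1.43 and -1.36, and its mean in the model group was 2.74 times that of the silibinin group and 2.56 times that of the phloridzin group.

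Morf4l2-212, which starts 1566 bases upstream of Morf4l2-215, was at 0.256 to 1.41 FPKM in the model livers, 1.19 to 5.88 in the control livers, 8.56 to 9.47 in the silibinin livers and 3.77 to 19.7 in the phloridzin livers. The livers of both drugs were above all model livers, with differences of 2.40 for silibinin and 2.54 for phloridzin. Morf4l2-202 was at 3.07 to 33.5 FPKM, and its groups overlapped. Morf4l2-203 was listed at 0 in all silibinin and phloridzin livers and was at 2.95, 8.88 and 3.60 FPKM in the model livers and 0, 0 and 3.63 in the control livers, which overlapped. Morf4l2-205 was at 1.81 to 3.33 FPKM in the model livers and at most 0.930 elsewhere. The other 7 rows had at most 1.46 FPKM. The division of fragments among the transcripts of this gene varied more within groups than the sum did, and Morf4l2-215 ranged from 0 to 66.2% of the sum among control livers.

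The promoter window at the start of Morf4l2-214 (chrX:136741106-136741405, minus strand, GRCm38.p6) is shown because this transcript led in model 1 and model 3. This window is 1 of 4 of the gene. It held 1 match to GAANNTTC, 1 to TTCNNGAA and 2 to CCAAT, in capitals, and none to the other 3 motifs. The window also holds the start of Morf4l2-202 and Morf4l2-215, and Morf4l2-203 starts at the same base as Morf4l2-214.
Morf4l2-214 promoter: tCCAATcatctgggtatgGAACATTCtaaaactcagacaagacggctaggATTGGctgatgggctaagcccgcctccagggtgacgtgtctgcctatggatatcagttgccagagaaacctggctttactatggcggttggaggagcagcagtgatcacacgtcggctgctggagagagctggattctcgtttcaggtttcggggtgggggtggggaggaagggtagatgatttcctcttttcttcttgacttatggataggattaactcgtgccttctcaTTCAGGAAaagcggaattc

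Of 19 tested genes of NuA4 and MRG complexes, 0 were called in model against control, silibinin against model or phloridzin against model, beside 10.5%, 4.0% and 3.52% of all gene sums. Their median difference was 0.58 in model against control, against 0.34 over all gene sums, and 0.21 with scaling by median ratios.

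Pcgf6 encodes a subunit of a variant Polycomb repressive complex (PRC1), which silences germ cell genes. Its row, Pcgf6-201 (chr19:47033619-47050845, minus strand), was at 3.79, 3.16 and 3.86 FPKM in the control livers, 4.95, 7.54 and 7.99 in the model livers, 3.68, 3.77 and 4.29 in the silibinin livers and 0.705, 0.683 and 0.687 in the phloridzin livers. The phloridzin livers were below all others, the model livers above all others, and control and silibinin livers overlapped. The mean of the silibinin group was 5.66 times that of the phloridzin group, a difference of -1.54 for phloridzin against silibinin. In model against control the difference was 0.75 (SE 0.166, adjusted p = 0.0178 by limma with Benjamini-Hochberg adjustment), higher in 3 of 3 model livers and below the size needed for a call. With scaling by median ratios it was 0.36 (adjusted p = 0.309). Of 27 tested PRC1 genes, 2 were called higher and 0 lower in model against control, beside 10.5% of all gene sums, Cbx3 (1.24), a chromodomain protein, and Max (1.02), a partner of MYC and of MGA. The median difference of the list was 0.36 against 0.34 over all sums. With scaling neither Cbx3 nor Max was called. Cbx7, named after its value was seen, was then called lower (-1.10), beside 468 of all 13123 sums called lower. In silibinin against model and in phloridzin against model 0 of 27 were called, beside 4.0% and 3.52% of all gene sums. With scaling Cbx7 was called higher in phloridzin against model (1.12), where 384 of 13123 sums were called.

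Qrich1 encodes a glutamine-rich nuclear protein that takes part in transcription under endoplasmic reticulum stress. The gene lies on the plus strand of chromosome 9, and Qrich1-202 (chr9:108517110-108559992) and Qrich1-201 (chr9:108517114-108560163) have the same 2331 coding bases. Qrich1-202 was at 1.18, 1.55 and 1.57 FPKM in the control livers, 1.45, 1.60 and 2.03 in the model livers, 1.48, 1.71 and 1.5 in the silibinin livers and 3.89, 4.13 and 5.34 in the phloridzin livers. The phloridzin livers were above all others, and the other 3 groups overlapped. Its share of the sum was 33.7% to 41.9% in the phloridzin livers and 10.7% to 25.9% in the other livers. The ratio of means between phloridzin and silibinin was 2.85, a difference of 1.08, while the gene sum differed by 0.21 with groups that overlapped. Qrich1-201 was at 0.983 to 1.1 FPKM in the phloridzin livers and 0.95 to 1.03 in the silibinin livers, which overlapped.

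In model against control the Qrich1 sum was 11.8 ± 1.62 against 6.53 ± 1.21 FPKM (SD, n = 3), a difference of 0.76 (SE 0.152, adjusted p = 0.0037 by limma with Benjamini-Hochberg adjustment), below the size needed for a call, and 0.34 with scaling by median ratios (adjusted p = 0.166). Qrich1-202 differed by 0.14 (adjusted p = 0.529 by limma with Benjamini-Hochberg adjustment), and by -0.14 with this scaling. Its share was 14.7% ± 3.54 in the model group and 22.2% ± 3.25 in the control group (SD, n = 3, adjusted p = 0.583 by limma with Benjamini-Hochberg adjustment), the lowest adjusted p among the 12 shares. Qrich1-212, which retains an intron, had the highest mean of the rows of this gene, at 1.84, 1.96 and 1.21 FPKM in the control livers and 4.48, 3.13 and 2.98 in the model livers. It differed by 0.76 (adjusted p = 0.0172 by limma with Benjamini-Hochberg adjustment), below the size needed for a call, and by 0.43 with scaling by median ratios (adjusted p = 0.0883). The adjusted p of limma with Benjamini-Hochberg adjustment was 0.0839 with the 2 groups alone and 0.059 without control 3. Qrich1-206, Qrich1-210, Qrich1-211 and Qrich1-214 were at 0.229 to 1.88 FPKM in the 12 livers and had adjusted p-values between 0.141 and 0.475 by limma with Benjamini-Hochberg adjustment. The other 7 rows had at most 1.51 FPKM.

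Blcap encodes a small conserved protein that was named after bladder cancer. It lies on the minus strand of chromosome 2, and Blcap-202 (chr2:157556362-157566337) and Blcap-201 (chr2:157556362-157566361) share 2056 bases and all 261 coding bases, with starts 24 bases apart. Blcap-202 was at 14.6, 18.5 and 13.8 FPKM in the control livers, 2.05, 0.00479 and 1.96 in the model livers, 15.4, 17.6 and 13.3 in the silibinin livers and 2.20, 16.1 and 15.0 in the phloridzin livers. The value of model 2 is 1 fragment. Every model liver was below every other liver, and phloridzin 1 was next to the model livers, whereas phloridzin 2 and phloridzin 3 were within the range of control livers. Blcap-201 was at 2.02, 0 and 1.89 FPKM in the model livers, 3.04, 0 and 0.00964 in the phloridzin livers and 0, 0.954 and 0 in the control livers, and was listed at 0 in all silibinin livers. Blcap-204, a transcript without a coding sequence, was at 0.674 to 2.54 FPKM in the 12 livers, and the fourth row had at most 0.0196 FPKM.

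Between silibinin and model, the comparison used to choose it, the mean of Blcap-202 differed by a ratio of 11.5 (2.97 on the log2 scale) and the gene sum by a ratio of 3.58 (1.77). Its share was 89.8% to 93.4% in the silibinin livers and 0.28% to 33.9% in the model livers. In phloridzin against control, which was not used to choose Blcap, 147 of 50485 transcripts (0.291%) and 398 of 13158 gene sums (3.02%) were called. Of these calls 66.7% of the transcripts and 90.5% of the sums were higher, and 55.3% and 79.6% with scaling by median ratios. None of 3 Blcap transcripts was called, and none had an unadjusted p under 0.05. Blcap-202 differed by -0.79 (SE 0.621, adjusted p = 0.699 by limma with Benjamini-Hochberg adjustment) and the gene sum by -0.37 (SE 0.395, adjusted p = 0.618). The difference of Blcap-202 rests on phloridzin 1 and was 0.0014 without it, and the 147 calls became 92 without that liver. They became 81 without phloridzin 2, 70 without control 1 and 86 without control 2. The 398 sums became 214 without control 1, 240 without control 2, 245 without phloridzin 1, 635 without phloridzin 3, 143 with the 2 groups alone, 1103 with a pseudocount of 0.1 and 1051 without a fold cutoff.

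Wdr89 encodes a protein with WD repeats. Wdr89-201 (chr12:75630596-75669537, minus strand) was at 1.34, 1.51 and 2.36 FPKM in the control livers, 0.0161, 0.0827 and 0.0101 in the model livers, 1.90, 2.18 and 2.26 in the silibinin livers and 0.0132, 0.0224 and 0.378 in the phloridzin livers. In fragments these are 420 to 771 in the control livers, 3 to 25 in the model livers, 603 to 741 in the silibinin livers and 4 to 111 in the phloridzin livers. Control and silibinin livers overlapped and were above all model and phloridzin livers, which overlapped with each other. The mean of the silibinin group was 15.3 times that of the phloridzin group, a difference of -1.47 for phloridzin against silibinin. Phloridzin 3, at 0.378 FPKM beside 0.0132 and 0.0224, holds most of the phloridzin mean. Without this liver the ratio is several times larger, and the difference is -1.61. In model against control, which was not used to choose it, Wdr89-201 fell by 1.38 (SE 0.169, adjusted p = 0.00153 by limma with Benjamini-Hochberg adjustment), with 0.0363 ± 0.0403 FPKM in the model group and 1.74 ± 0.547 in the control group (SD, n = 3), lower in 3 of 3 model livers. With scaling by median ratios it fell by 1.53. The second row, Wdr89-202, had at most 0.0114 FPKM.

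**Figure D4:**
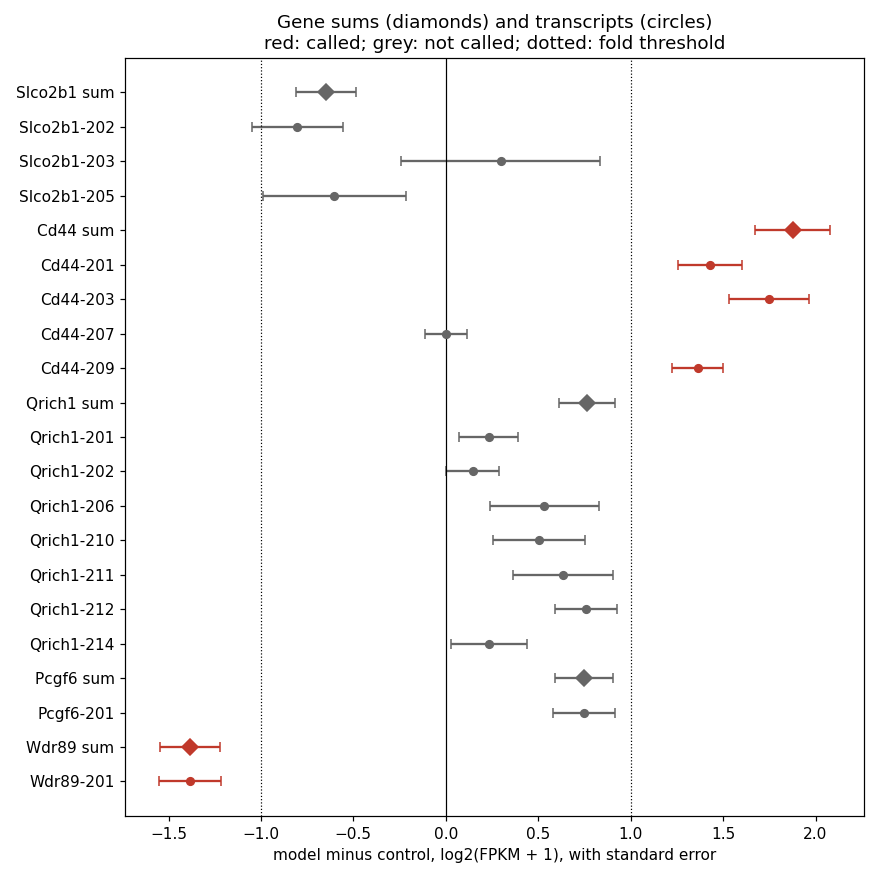
Difference between model and control in log2(FPKM + 1), with its standard error, for the gene sums (diamonds) and transcripts (circles) of Slco2b1, Cd44, Qrich1, Pcgf6 and Wdr89, in red where called. The calls are the Cd44 sum with 3 of its transcripts, which rose, and Wdr89, which fell, and with scaling by median ratios the Slco2b1 sum and Slco2b1-202 are called as well.

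Over the 5 genes tested in model against control, 4 of 16 transcripts were called, beside 4.78% of all transcripts, and 2 of 5 gene sums, beside 10.5% of all sums. Cd44-207, 1 of the 16, was at or near 0 in both groups and had no way to be called. The sums called are those of Cd44 and Wdr89. Of 1429 called transcripts with a symbol, 360 (25.2%) belonged to a gene whose sum was not called, and none of the 4 called here was among them. In phloridzin against control 13 of 83 such transcripts (15.7%) had a gene sum that was not called.

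The transcript of another gene most like each of the 7 leading transcripts was taken as that with the smallest root mean square difference of centred log2(FPKM + 1) values over the 12 livers. A likeness over these livers follows from this choice and is only described. For Slco2b1-202 it was a transcript of Nudt7, a peroxisomal hydrolase of coenzyme A (0.56), and for Cd44-207 one of Arhgap19, a GTPase activating protein (0.163). For Morf4l2-214 it was a transcript of Suclg2, a subunit of succinyl-CoA ligase (0.672), which was at 43.7 FPKM in model 1, 0.27 in model 2 and 11.4 in model 3, and at most 0.253 elsewhere. For Blcap-202 it was one of Abhd15, an abhydrolase domain protein (0.635), at 7.62 FPKM in phloridzin 1 and 27.9 and 30.2 in the other phloridzin livers. For Wdr89-201 it was a transcript of Tpp2, a peptidase (0.327), listed at 0 in all model and phloridzin livers. For Qrich1-202 it was one of Rps9, a ribosomal protein (0.228), and for Pcgf6-201 one of Swi5, a recombination protein (0.387).

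**Figure D5:**
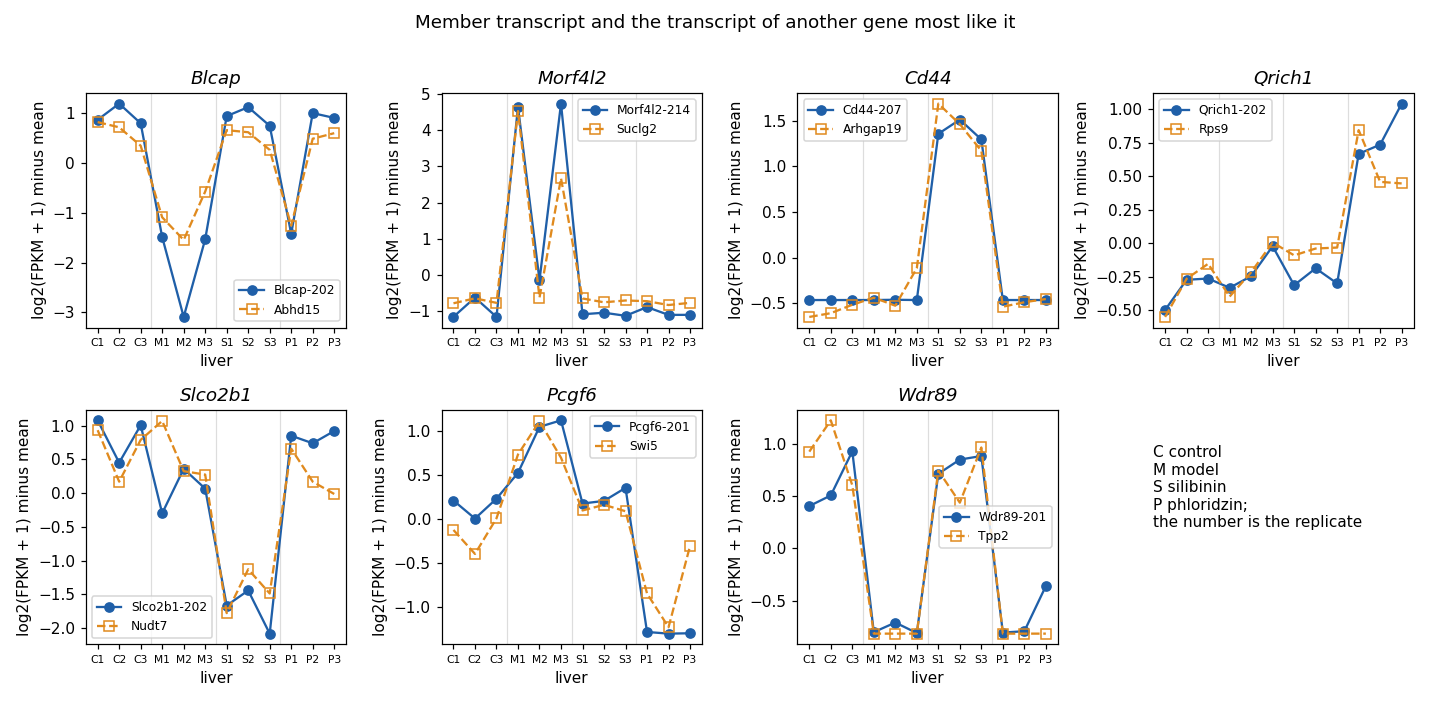
Centred log2(FPKM + 1) in each of the 12 livers (C control, M model, S silibinin, P phloridzin) for the leading transcript of each gene (filled circles) and for the most similar transcript of another gene (open squares). The similar transcripts were picked by these same values, so that the likeness follows from the choice. Among the livers of its group, Suclg2 was lowest in model 2, as Morf4l2-214 was, and Abhd15 in phloridzin 1, as Blcap-202 was.

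Noncoding rows of the NONCODE collection lie within or across Blcap, Morf4l2, Qrich1 and Wdr89. Those of Blcap and Morf4l2 and 4 of the 5 of Qrich1 are on the strand of the gene, and the other row of Qrich1 and that of Wdr89 are on the opposite strand. Whether strand was used in counting is not stated, and without it fragments of opposite rows cannot be told apart where they share bases. The Morf4l2 row lies between exons of the described transcripts and shares no base with them, and the Wdr89 row spans the first exon of Wdr89-201. The row over Blcap was at 1.76 to 6.96 FPKM, that over Morf4l2 at 0.538 to 4.04 and that over Wdr89 at 0.798 to 2.92. The 5 rows over Qrich1 were at 0.174 to 3.97 FPKM. The row of Wdr89 was above Wdr89-201 in every model and phloridzin liver.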

How the data were processed

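Total RNA of 12 livers was sequenced by the authors on the Illumina NovaSeq platform, with libraries of the NEB Next Ultra kit. The authors deposited FPKM values of 169430 transcripts, and the submitters' notes name bcl2fastq, FastQC 0.11.5, HISAT2 2.1.0, StringTie 1.3.3b, DESeq 1.28.0 and mm10, without roles. FPKM was inferred, as in each liver 99.0% to 99.1% of values under 100 fragments, times length, were whole multiples of a step (tolerance 0.05 fragments), and so were all 263 such values of the 7 genes. Tests on counts were therefore replaced by limma 3.58.1 in R 4.3.3 with a variance trend on log2(FPKM + 1), 12 livers in 1 fit, for features with a mean of at least 0.5 FPKM. The fits were tested on simulated data. P-values are two-sided and adjusted by Benjamini-Hochberg over all features. Exons came from GENCODE M21. Pcgf6-201 was deposited with both ends inside those annotated there. Tables were made with Python 3.11.15, pandas 2.3.3 and numpy 2.4.6, and figures with matplotlib 3.10.9.

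The members and the gene lists were chosen with earlier results of these data known. Member transcripts with a mean of at least 0.5 FPKM were described by value and the others by range. From each list, the called genes were named, at most 4 per comparison by size, and 1 transcript most like each leading transcript. Alternatives covered the pseudocount, the filter, the groups in the fit, a replicate block, scaling by median ratios, the variance trend, the fold cutoff and each liver left out. Voom on the recovered fragments was added after the data were seen.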

Additional observations from a re-analysis of the deposited data

How the results depend on the processing

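The alternatives gave 408 values, of member transcripts and sums, the shares of Slco2b1-202 and Slco2b1-203, and the count of called member shares. Of these, 393 kept their direction and their side of the threshold, 9 gained a call, 6 changed sign and none lost a call. The 393 include values of Cd44-207, which had no way to be called, and the count of called shares, which has no direction. The gained calls were Slco2b1-202 and the Slco2b1 sum with scaling by median ratios, Qrich1-212 with a pseudocount of 0.1 (1.04) and with voom (1.09), and, without a fold cutoff, Qrich1-212, Pcgf6-201 and the sums of Pcgf6, Qrich1 and Slco2b1. With scaling Qrich1-202 was at -0.14 and Slco2b1-203 at -0.061 in model against control. With each liver left out in turn Slco2b1-203 ranged from -0.46 to 0.88, and in phloridzin against control Blcap-202 ranged from -1.21 to 0.0014, Blcap-201 from -0.32 to 0.69 and Blcap-204 from -0.00022 to 0.44. With a pseudocount of 0.1 the differences used to choose the genes, which are not tests, became larger, at 4.32 for Blcap-202, -6.30 (silibinin) and -6.07 (phloridzin) for Morf4l2-214 against model, -4.75 for Cd44-207, 1.44 for Qrich1-202, 2.97 for Slco2b1-202, -2.34 for Pcgf6-201 and -3.55 for Wdr89-201. The 2415 transcripts called in model against control became 5526 with a pseudocount of 0.1, 7184 without a fold cutoff and 1012 of protein-coding transcripts alone, and the 1382 sums became 2596 and 4594. The 147 transcripts called in phloridzin against control became 379 with a pseudocount of 0.1, 81 without a filter, 58 with the 2 groups alone and 87 with voom on fragments, chosen after seeing the data, and ranged from 70 to 215 with 1 liver left out. The 87 called shares became 32 with sums over rows of at least 0.5 FPKM, 171 with the 2 groups alone and 837 with diffSplice. With the replicate number as a block, these 147 transcripts became 56, the 87 shares 40, the 2415 transcripts 2208 and the 1382 sums 1363. Livers of the same number did not deviate together (correlations from -0.069 to 0.034), so that the numbers do not pair them. The cause of these changes was not tested. With 3 livers per group small differences go undetected. The division of fragments among transcripts is the software's estimate, its error is not in these values, and values of a few fragments, as for Wdr89 in model livers, have a large counting error.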
